A study of Mus musculus with 15 samples.

Results

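The neuronal cytoskeleton genes described here were the 4 neurofilament subunits Nefl, Nefm, Nefh and Ina and the 4 microtubule-associated proteins Mapt, Map2, Map1a and Map1b. They were taken by symbol, so that 8 of the 26145 genes listed in the count tables were members. All 8 were present. The files list Map2, Map1a and Map1b under the older symbols Mtap2, Mtap1a and Mtap1b.

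Neurofilaments are the intermediate filaments of neurons, built from a light (Nefl), a medium (Nefm) and a heavy (Nefh) subunit together with alpha-internexin (Ina), and they fill large axons and set their calibre. Microtubule-associated proteins bind and stabilise microtubules. Tau (Mapt) is best known from axons and Map2 from dendrites, whereas Map1a and Map1b are large homologous proteins, of which Map1b is typical of growing neurites and Map1a of mature neurons. Neurofilament content differs between projection neuron types of the cortex, and tau is also made by oligodendrocytes.

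Single cells of the prefrontal cortex (PFC) of male C57BL/6N mice were profiled on a droplet platform that counts the 3′ ends of transcripts by unique molecular identifiers (UMIs). The titles and source names of the 15 libraries give PFC, although their tissue field reads NAc and the extraction text names both. Of these, 3 came from untreated mice of 3 weeks (P21) and 12 from adult mice that had undergone intravenous self-administration (IVSA) of saline or cocaine. The labels give the adults as 8 to 10 weeks, and they are called P60 here. By the paper the catheter was implanted at P60, so that the mice were older at collection, most so after 15 days of withdrawal. The adult groups had 2 libraries each, for saline and cocaine, taken at the maintenance phase, after 48 h of withdrawal or after 15 days of withdrawal. By the study's methods, tissue of 2 mice was pooled for each library, and 4 mice were used for P21, where 3 libraries were deposited. If both statements hold, the 3 P21 libraries cannot all come from separate animals. The age tests count them as 3 replicates, so that their p-values may be too small. The adult controls had catheter surgery, food training and saline infusion, which the P21 mice had not, so that age and these procedures cannot be told apart. The paper's methods also name a bias from different sequencing technologies where P21 cells are matched to adult cells. No library spans the ages, so that age cannot be told apart from such a difference either.

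The 15 libraries held 8375172 to 42892922 UMIs over 1055 to 4439 retained cells, with a median of 3426 to 11334.5 UMIs per cell. The 35360 retained cells had 34602 distinct barcodes, of which 747 occurred in 2 or more libraries. Cell types and clusters were those the authors deposited, 26 excitatory (Exc_1 to Exc_26) and 8 inhibitory clusters having at least 2 adult libraries with 10 or more cells. The labels matched their markers: at P60, Gad2 averaged 1545 CPM (counts per 1000000 UMIs) in inhibitory and 0.747 CPM in excitatory neurons, and Slc17a7 410 CPM in excitatory neurons. The paper named the classes by these same genes, so that this is no independent check. The striatal genes Drd2 and Adora2a reached at most 7.42 and 6.87 CPM in the inhibitory neurons of any adult library, and 14443 excitatory stood beside 1191 inhibitory adult cells. Ppp1r1b, also on the list of striatal genes, is not given here, nor are the levels of these genes at P21. The tissue label was not tested further. P21 library 1 stood apart from the other P21 libraries, with 40972771 UMIs against 19765973 and 21149153, and the main age results are given with and without it. Among cells of the excitatory clusters, 276 of 5934 at P21 (4.65%) and 10 of 14443 at P60 (0.0692%) carried a class label of another type. The summed level of 5 mature oligodendrocyte markers in excitatory neurons was 122 to 408 CPM at P21 and 19.7 to 69.2 CPM in saline P60 libraries. It stayed at 70.8 to 172 CPM at P21 when those cells were left out.

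Levels are CPM: within each library, the cells of a type were pooled and their UMIs added up, without mitochondrial and ribosomal protein genes. A summed level cannot tell fewer expressing cells from less RNA per cell, and 3′ counts were not compared between genes. By Ensembl positions on the submitters' build (mm9, NCBIM37), Nefl (chr14:68701920-68707152, plus strand) lies inside the span of Nefm (chr14:68700647-68742903, minus strand), and Map1a (chr2:121115336-121136568, plus strand) overlaps Ppip5k1 and Gm14978. The span of Ina overlaps Nt5c2, that of Mapt AL593843.1, Gm11659 and SNORA25, and that of Map2 Gm10558, SNORA26 and U1. Counting by strand is not given in the sources used here, so that reads of these overlapping genes may not be separable. The other members were Nefh at chr11:4838757-4848067 and Map1b at chr13:100191419-100286557, both on the minus strand, and Ina at chr19:47089188-47099817, Mapt at chr11:104092704-104193404 and Map2 at chr1:66221847-66489157 on the plus strand. The last 500 bases of their coding transcripts aligned to no gene elsewhere over 100 bases or more at 90% identity.

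The RefSeq table held promoter windows for 4 of the 8 members. Those of Map1a, Map1b and Map2 are printed, because the age results below turn on these genes. Each is the 250 bases before the annotated start, 5′ to 3′ on the gene's strand, in the GRCm38.p6 build, at chr2:121289352-121289601 (plus), chr13:99516603-99516852 (minus) and chr1:66175079-66175328 (plus). Capitals mark matches, on either strand, of the GC box GGGCGG, the CCAAT box CCAAT and the TATA box TATAAA.
Map1a: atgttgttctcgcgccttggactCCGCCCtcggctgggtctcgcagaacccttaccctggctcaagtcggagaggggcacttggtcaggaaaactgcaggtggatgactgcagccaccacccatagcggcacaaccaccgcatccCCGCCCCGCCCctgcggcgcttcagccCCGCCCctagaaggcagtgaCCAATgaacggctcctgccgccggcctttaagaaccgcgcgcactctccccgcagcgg
Map1b: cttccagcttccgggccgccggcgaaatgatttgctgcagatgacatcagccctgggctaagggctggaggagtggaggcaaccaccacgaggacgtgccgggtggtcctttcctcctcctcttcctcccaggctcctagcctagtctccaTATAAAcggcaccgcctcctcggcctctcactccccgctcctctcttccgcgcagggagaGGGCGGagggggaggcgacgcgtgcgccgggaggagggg
Map2: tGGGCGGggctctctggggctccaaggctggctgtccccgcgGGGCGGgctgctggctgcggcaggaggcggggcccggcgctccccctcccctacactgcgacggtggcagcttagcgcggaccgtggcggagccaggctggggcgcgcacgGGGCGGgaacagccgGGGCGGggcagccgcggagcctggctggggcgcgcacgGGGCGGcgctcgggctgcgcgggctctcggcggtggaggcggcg
Map1a held 4 GC boxes, a pair of them overlapping by a base, and 1 CCAAT box. Map1b held 1 GC box and 1 TATA box, and Map2 held 5 GC boxes. Of 32851 windows of this length, 32.7% held the GC box, 33.8% the CCAAT box and 12.4% the TATA box. The windows of Map1a, Map1b and Map2 were 66.0%, 66.4% and 81.2% G and C, against a median of 52.4%. These matches are letters in a sequence and no evidence that a factor binds.

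In adult PFC, Nefl, Nefm and Ina were highest in excitatory neurons, whereas the microtubule-associated proteins were found in both neuron classes and, in part, in the oligodendrocyte lineage. Nefl averaged 407 ± 34.9 CPM (SD, n = 12 libraries) in excitatory neurons, against 52.6 ± 33.9 CPM in the inhibitory class. The lowest excitatory library, at 357 CPM, lay above the highest inhibitory library, at 104 CPM. Nefm likewise averaged 63.4 ± 13.0 against 9.92 ± 9.10 CPM, without overlap (44.4 CPM and above against 28.4 CPM and below). Ina averaged 117 ± 12.5 against 89.3 ± 20.0 CPM, with overlapping libraries. Within each library, which holds both classes, Ina was higher in excitatory neurons, most closely at 122 against 116 CPM. Nefh averaged 15.0 ± 2.06 against 15.7 ± 8.28 CPM, so that the heavy subunit did not follow the light and medium ones.

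Of the microtubule-associated proteins, Mapt, Map2 and Map1a were less divided between the neuron classes than Nefl and Nefm. For excitatory and then inhibitory neurons, Mapt averaged 678 ± 99.2 and 618 ± 74.5 CPM, Map2 169 ± 11.7 and 183 ± 46.3 CPM, and Map1a 241 ± 20.2 and 264 ± 44.3 CPM. All 3 overlapped between classes. Within libraries, Map1a was higher in inhibitory neurons except at cocaine maintenance, with 267 and 209 CPM in excitatory and 219 and 168 CPM in inhibitory neurons. Map1b was higher in excitatory neurons, at 1577 ± 128 against 1012 ± 128 CPM. Its lowest excitatory library, at 1311 CPM, lay above its highest inhibitory library, at 1206 CPM. These are descriptions, since the classes were defined by clustering the same expression data, and whether these genes entered it is not known here. The cells behind them differ in number, from 321 to 2619 excitatory and from 19 to 218 inhibitory cells per adult library.

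As a share of UMIs (CPM), tau had its highest mean in mature oligodendrocytes, above both neuron classes. Mapt averaged 1080 ± 101 CPM in mature oligodendrocytes (n = 12 libraries, 947 to 1302 CPM). Newly formed oligodendrocytes followed at 1024 ± 257 CPM and their precursors at 375 ± 96.2 CPM (n = 11 each), while endothelial cells had 43.3 CPM. Map1a averaged 386 ± 52.4 CPM in mature oligodendrocytes, 235 ± 99.2 CPM in newly formed oligodendrocytes and 24.0 CPM in endothelial cells. Map1b averaged 1744 ± 235 CPM in newly formed oligodendrocytes (1426 to 2152 CPM) but 164 ± 76.3 CPM in mature ones, and no library of the 2 stages overlapped. Map2 averaged 202 ± 27.4 CPM in precursors and 142 ± 17.7 CPM in astrocytes, both near its neuronal level, and 25.1 ± 11.5 CPM in mature oligodendrocytes.

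Neuronal RNA free in the droplets adds UMIs to all cells, and Snap25, a synaptic gene of neurons, gave the scale of it. Per 100 Snap25 UMIs, excitatory neurons held 9.72 UMIs of Nefl, and the non-neuronal types held 9.15 to 12.1, close to the ratio in neurons. Nefl at 15.8 to 60.8 CPM in endothelial cells and microglia is therefore read as background. For Mapt the ratio was 17.2 in excitatory neurons but 479 in mature and 547 in newly formed oligodendrocytes, and for Map1a it was 5.62 against 169 and 138. For Map1b it was 38.6 in excitatory neurons and 955 in newly formed oligodendrocytes, and for Map2 it was 3.96 against 47.7 in precursors and 25.6 in astrocytes. The oligodendrocyte levels of these genes were thus many times what background in the neuronal ratio would give.

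**Figure D1:**
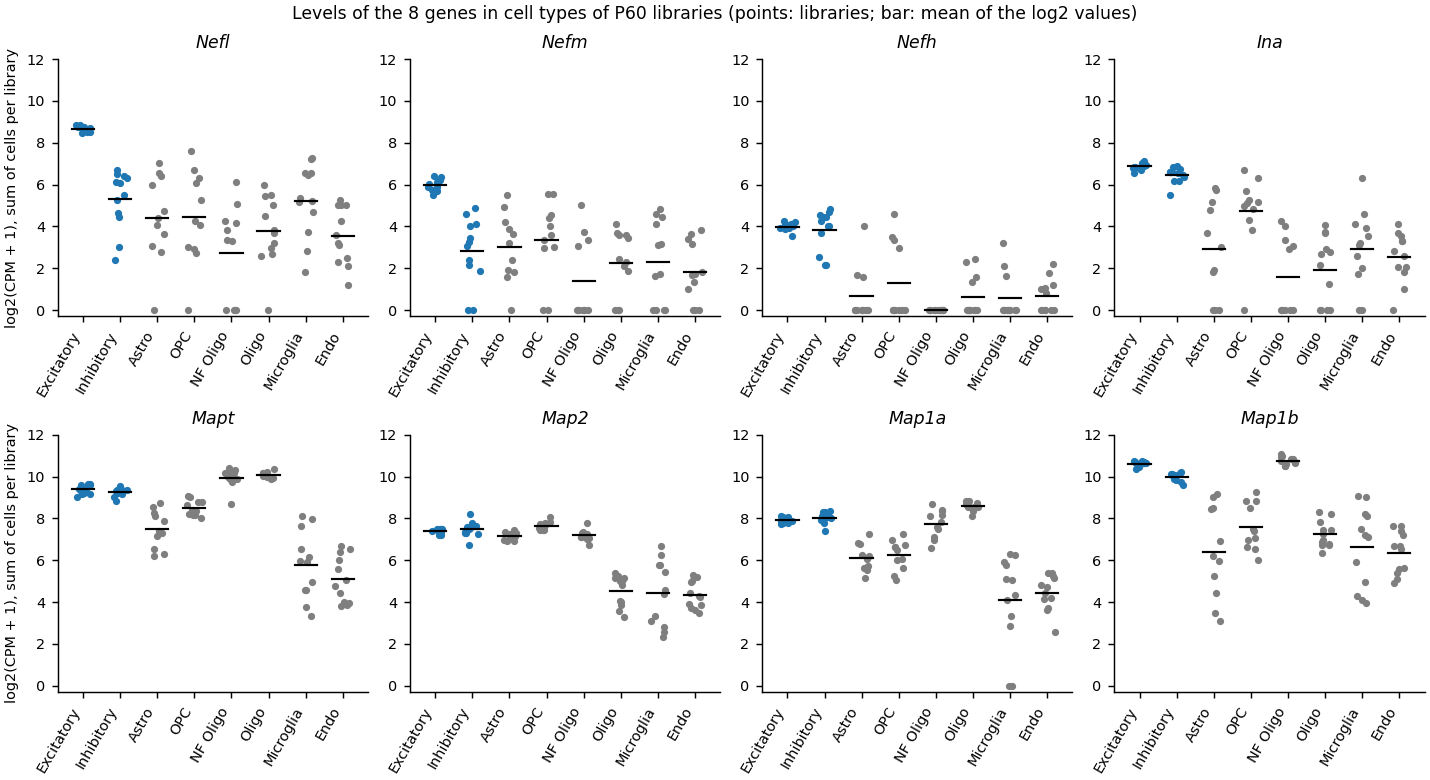
Each point is 1 adult library, plotted as log2(CPM + 1) of the UMIs of all its cells of a type, with neurons in blue and other types in grey, and bars mark the mean of the log2 values. Nefl and Nefm stand highest in excitatory neurons, while Mapt is higher in mature oligodendrocytes (Oligo), at 947 to 1302 CPM, than in the neuron classes, and Map1b is high in newly formed (NF) but not in mature oligodendrocytes.

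Detection per cell followed the same lines. Thinned to 2000 UMIs per cell, 49.2% of adult excitatory neurons had a Nefl UMI, against 9.15% of inhibitory neurons and 2.72% of endothelial cells, which serve as background. Without thinning the shares were 91.6%, 24.1% and 5.98%, at median depths of 13620, 8038 and 4516 UMIs. Nefm was detected in 11.1% of thinned excitatory neurons, 2.18% of inhibitory neurons and 0.617% of endothelial cells. Nefh was detected in 2.51%, 2.69% and 0.112%. Mapt was detected in 85.2% of thinned mature oligodendrocytes and 70.8% of excitatory neurons, against 5.64% of endothelial cells. Without thinning these shares were 95.4%, 98.2% and 13.2%, at median depths of 3626, 13620 and 4516 UMIs, so that excitatory neurons stood above mature oligodendrocytes. Nefh was found in 0 of 336 newly formed oligodendrocytes, which allows a share of cells with a UMI of up to 0.893%, for counting error only.

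Among the 26 excitatory clusters of the adult PFC, each neurofilament subunit had a wider range of means than any of the microtubule-associated proteins. The highest and the lowest cluster mean differed 31.9-fold for Nefm, 9.46-fold for Nefl, 7.14-fold for Nefh and 3.82-fold for Ina. For Map1a, Map2, Map1b and Mapt these ratios were 2.76, 1.95, 1.88 and 1.83. The ratio of Nefh rests on Exc_26, the next highest cluster standing at 20.3 CPM, and that of Nefl on Exc_21, the next lowest standing at 246 CPM. Ranges of this kind include the error of clusters with few cells. The values are means over 7 to 12 libraries per cluster and are given without a test.

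Nefl and Nefm shared their extremes. Exc_18 was highest for both, at 723 ± 159 CPM of Nefl and 290 ± 104 CPM of Nefm (n = 7 libraries), and expressed the layer 6 marker Foxp2 at 119 CPM. Exc_26 came next, with 651 ± 153 CPM of Nefl and 181 ± 82.8 CPM of Nefm (n = 8). The order of these 2 clusters is not firm, since Exc_18 lay above Exc_26 in 4 of 7 shared libraries for Nefl and in 5 of 7 for Nefm. Exc_21, which expressed the layer 5 marker Tshz2 at 2099 CPM, was lowest for both, at 76.4 ± 31.2 CPM of Nefl and 9.09 ± 5.47 CPM of Nefm (n = 12). Its Nefl lay below that of the next cluster, Exc_7 at 246 ± 49.7 CPM, in 9 of 9 shared libraries.

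Nefh had a single high cluster. Exc_26 averaged 62.3 ± 31.1 CPM of Nefh, from 14.0 to 103 CPM over its 8 libraries, and lay above the next cluster, Exc_3 at 20.3 ± 7.09 CPM, in 7 of 8. Exc_26 expressed the layer 5 markers Fezf2 at 222 CPM, Bcl11b at 274 CPM and Pou3f1 at 91.2 CPM, genes known from neurons that project below the cortex. Among the other clusters, from 20.3 down to 8.73 ± 7.05 CPM in Exc_6, neighbours in the order differed by less than the sum of their SDs. Ina was also highest in Exc_26, at 306 ± 59.5 CPM, followed by the Foxp2-expressing clusters Exc_18, Exc_20 and Exc_19 at 271, 222 and 198 CPM. Exc_21, lowest in Nefl, came next for Ina at 159 ± 24.6 CPM, and Exc_4 was lowest at 80.1 ± 14.5 CPM.

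Across the excitatory clusters Map1a tended to be high where Map1b was low. Map1a was highest in Exc_1 (386 ± 62.2 CPM, n = 11) and Exc_5 (384 ± 30.6 CPM, n = 12), with Exc_3, Exc_2 and Exc_4 at 359, 359 and 341 CPM, and these 5 clusters expressed the layer 2/3 marker Calb1 at 247 to 327 CPM. Exc_26, at 375 ± 92.6 CPM, stood among them. Exc_7 at 140 ± 27.4 CPM and Exc_21 at 157 ± 35.0 CPM were lowest. Map1b was highest in Exc_20 (2228 ± 156 CPM) and Exc_19 (2182 ± 263 CPM), both expressing Foxp2, and lowest in Exc_1, Exc_2 and Exc_5 at 1187 ± 145, 1234 ± 131 and 1236 ± 166 CPM. Exc_19 lay above the next cluster, Exc_7 at 1903 CPM, in 9 of 9 shared libraries. Map1b therefore made up 75.5% ± 2.27 of the UMIs of both genes in Exc_1 and 93.1% ± 1.33 in Exc_7.

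Mapt and Map2 were flatter. Mapt ranged from 819 ± 74.4 CPM in Exc_23 to 447 ± 40.1 CPM in Exc_26, the cluster with the most Nefh, Ina and Map2. The next lowest, Exc_2 at 516 CPM, lay above Exc_26 in 7 of 8 shared libraries. Map2 ranged from 265 ± 55.1 CPM in Exc_26 and 245 ± 47.3 CPM in Exc_18 to 136 ± 12.2 CPM in Exc_22, and neighbours in this order differed by less than the sum of their SDs.

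**Figure D2:**
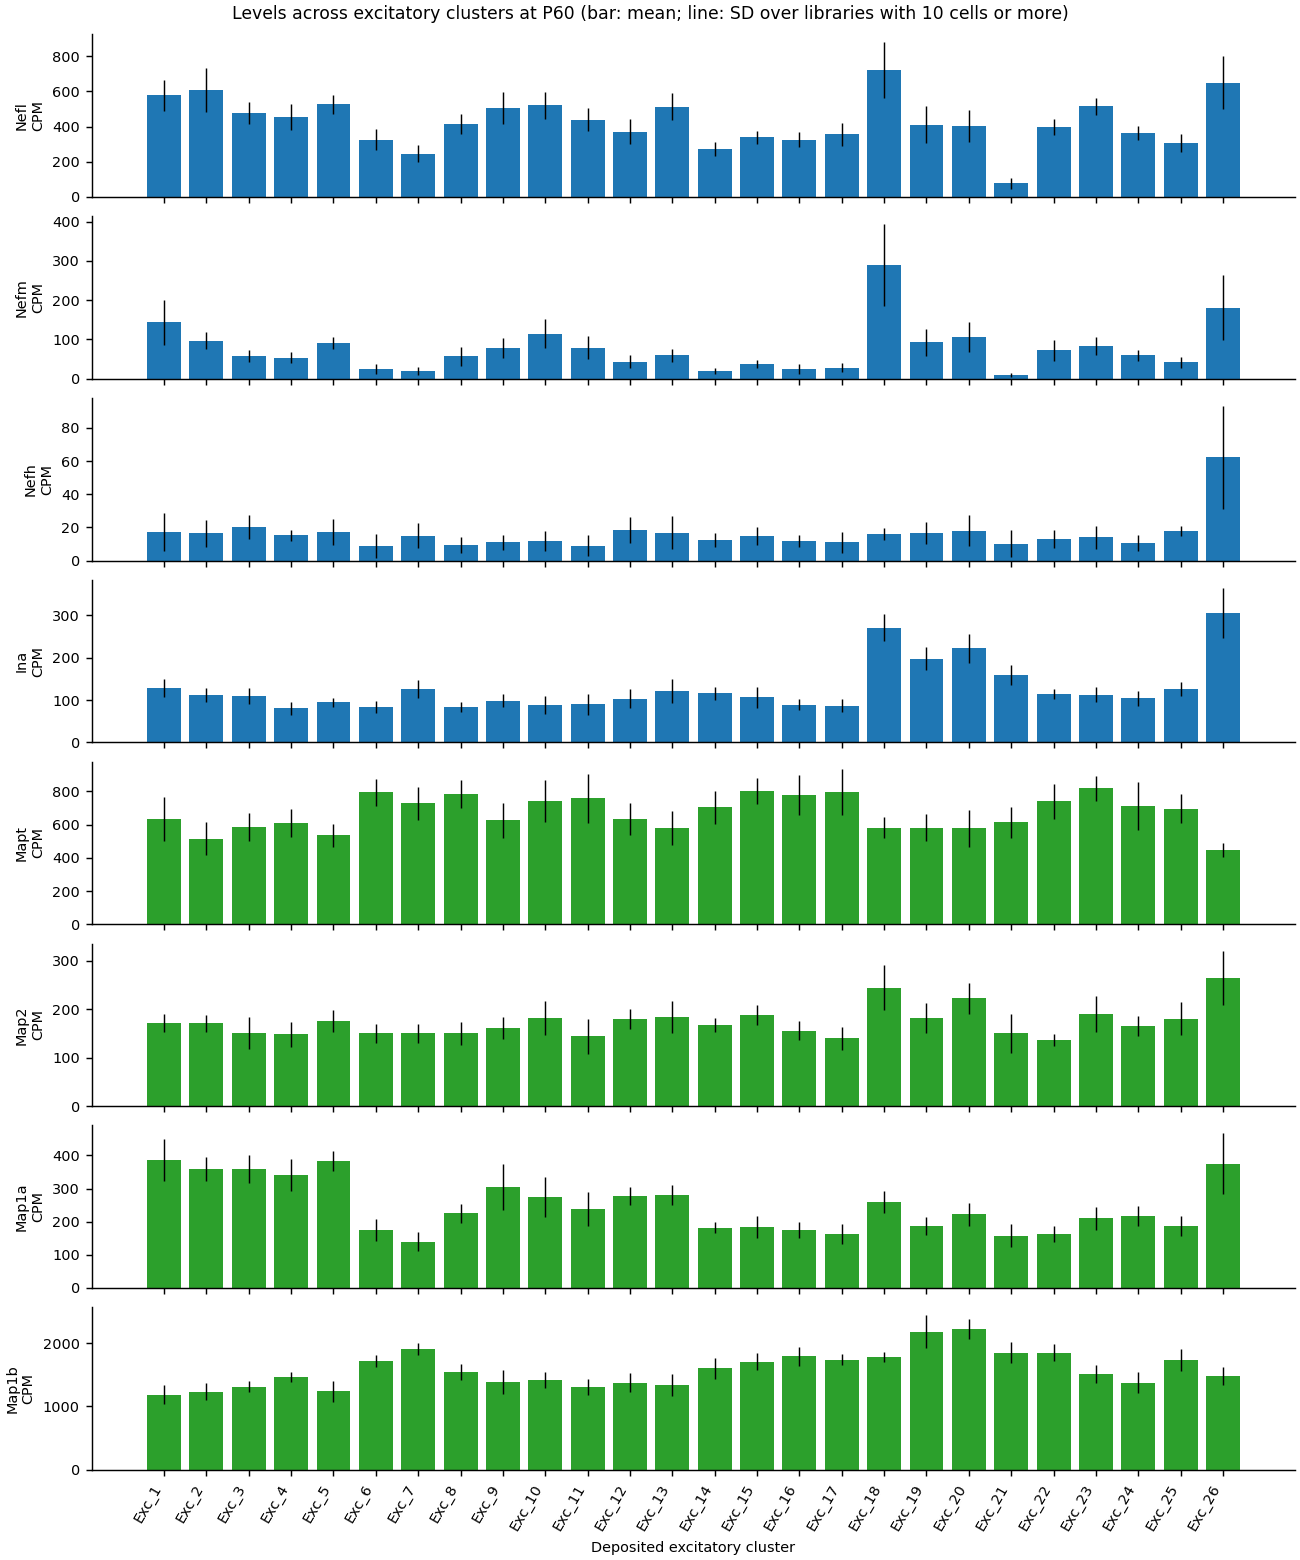
Bars give the mean CPM of each gene in each deposited excitatory cluster at P60 and lines the SD over libraries with 10 or more cells, with neurofilament subunits in blue and microtubule-associated proteins in green. Exc_26 leads for Nefh at 62.3 CPM and Ina at 306 CPM and is lowest for Mapt at 447 CPM, and Exc_21 is lowest for Nefl at 76.4 CPM.

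Over the 26 excitatory clusters, the means of Nefl and Nefm correlated at r = 0.87, Ina and Map2 at 0.77, and Nefl and Map1a at 0.68. Map1a and Map1b correlated at -0.76, Nefh and Mapt at -0.73, and Nefl and Ina at 0.10. With the 8 inhibitory clusters added, Nefl and Nefm stood at 0.92, Ina and Map2 at 0.40, Nefl and Map1a at 0.19, Map1a and Map1b at -0.59, Nefh and Mapt at -0.45, and Nefl and Ina at 0.15. These clusters share libraries and differ in depth and cell number, so that the values only describe the pattern. Over the 34 neuron clusters and 8270 genes of at least 10 CPM, the closest profiles to Nefl were those of Cnksr2, Homer1 and Arpp19 (r = 0.94 each), and those closest to Nefm were Homer1, Rprml and Ngef (0.90, 0.87 and 0.86). Map1a was closest to Camta2, Zcchc7 and Ski (0.84, 0.80 and 0.80) and Map1b to Tmem50a, Tmem159 and Uchl1 (0.82, 0.82 and 0.79). Map2 was closest to Mapre3, Clip2 and Cox5a (0.85, 0.77 and 0.77) and Mapt to Cib2, Bnip3l and Ube2e1 (0.79, 0.79 and 0.77). For Ina these were Wwox, Nos1ap and Tnfrsf21 (0.78, 0.76 and 0.74) and for Nefh Kpnb1, Mapk8ip2 and Hnrnpu (0.79, 0.79 and 0.78).

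Of the 8 inhibitory clusters, Inhib_7 had the least Map1b (645 ± 104 CPM, n = 9 libraries) and the most Map1a (337 ± 37.4 CPM). The paper places Inhib_7 outside its main Pvalb, Sst and Vip populations. Sst at 532 ± 488 CPM and Pvalb at 230 ± 202 CPM varied widely between its libraries and do not name the cluster. Inhib_10, with the interneuron marker Vip at 5980 CPM, had the most Map1b (1713 ± 272 CPM) and the most Map2 (305 ± 39.7 CPM), on 2 libraries. Map2 was lowest in Inhib_7 at 126 ± 38.0 CPM. Among these 8, Nefl ranged from 158 ± 53.3 CPM in Inhib_3 (n = 4) to 17.3 ± 24.5 CPM in Inhib_10 (n = 2), and its neighbours in this order overlapped. Inhib_6 was not among the 8, so that its CPM was not ranked. By detection it stood above Inhib_3, with a Nefl UMI in 34.1% of 44 thinned cells against 22.2% of 135. Without thinning these shares were 72.7% and 42.2%, at median depths of 7457 and 4668 UMIs.

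The comparison of ages asked which of these genes differ between the adolescent and the adult PFC. In excitatory neurons, Map1a and Mapt were higher at P60 and Map2 was lower, each by less than 1.5-fold. No neurofilament subunit passed the test. Map1a was at 213, 156 and 151 CPM in P21 libraries 1, 2 and 3 and averaged 248 ± 18.9 CPM in the 6 saline P60 libraries (222 to 274 CPM, median 245), so that the groups did not overlap. Its log2 fold change was 0.58 ± 0.12 (SE) with a fold of 1.49 (edgeR quasi-likelihood test, adjusted p = 0.00174). Mapt was at 512, 481 and 486 CPM at P21 and averaged 668 ± 110 CPM at P60 (525 to 797 CPM, median 656), again without overlap (log2 fold change 0.50 ± 0.11, edgeR adjusted p = 0.00422). The saline libraries of 15 days stood at 797 and 792 CPM of Mapt and the other saline libraries at 525 to 670 CPM. The 15-day saline libraries were also deeper, with 42892922 and 27704573 UMIs against 8375172 to 19814919. The age fit did not hold the time point, with which the age at collection also rises. The part of time point, age at collection or depth was not tested. Map2 was at 219, 232 and 234 CPM at P21 and averaged 170 ± 12.3 CPM at P60 (149 to 182 CPM, median 172). It decreased by 0.36 on the log2 scale (SE 0.075, edgeR adjusted p = 0.00211), and its groups did not overlap.

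The remaining members did not pass. Map1b was at 1236, 1502 and 1416 CPM at P21 and averaged 1583 ± 142 CPM at P60, with a log2 fold change of 0.26 (95% interval 0.031 to 0.49, edgeR adjusted p = 0.0659). Nefl was at 440, 535 and 516 CPM at P21 and 405 ± 38.4 CPM at P60 (log2 fold change -0.23, 95% interval -0.46 to 0.0011, edgeR adjusted p = 0.102). Ina was at 141, 122 and 130 CPM against 110 ± 10.7 CPM (-0.19, edgeR adjusted p = 0.0955). Nefm was at 109, 67.9 and 64.6 CPM against 59.8 ± 10.7 CPM (-0.36, 95% interval -0.75 to 0.021, edgeR adjusted p = 0.119), its P21 mean resting on library 1. With an equal number of cells from each cluster the direction turned for both, to 0.31 for Nefm and 0.11 for Ina, neither passing (edgeR adjusted p = 0.138 and 0.587). Nefh was at 17.0, 14.4 and 13.9 CPM against 14.7 ± 2.63 CPM (0.0016, edgeR adjusted p = 0.995).

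**Figure D3:**
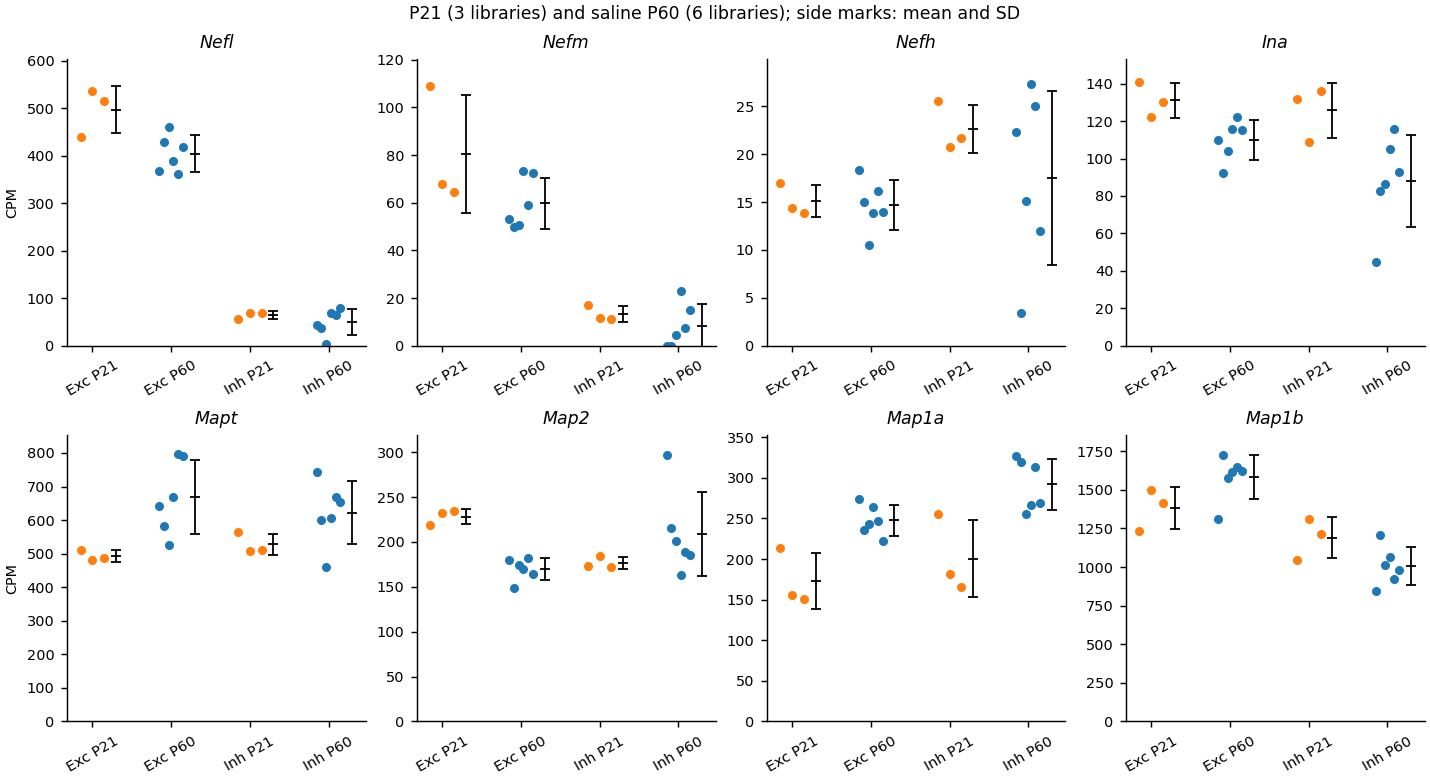
Points are libraries at P21 (orange, 3) and saline P60 (blue, 6), in CPM, for excitatory (Exc) and inhibitory (Inh) neurons, and side marks give the mean and SD. Map1a in excitatory neurons lies at 151 to 213 CPM at P21 and at 222 to 274 CPM at P60, and Map2 lies at 219 to 234 CPM and at 149 to 182 CPM.

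At an adjusted p below 0.05 and over 1.5-fold, 0 of the 8 members were called in excitatory neurons, against 19.3% of 13245 genes tested. These limits are those of the study, but the adjustment here is by Benjamini-Hochberg over library sums, where the study tested single cells with a Bonferroni correction. DESeq2 called 0 as well, and 5 members had an unadjusted edgeR p below 0.05, against 6562 of the 13245 genes. Without the fold limit 3 of 8 passed, against 40.4% of all genes, a share near the background. The median log2 fold change was -0.092 over the members and -0.0048 over all genes. Without P21 library 1, Map1a was at 0.76 on the log2 scale (edgeR adjusted p = 5.56e-05) and was called, Mapt at 0.53 and Map2 at -0.40 (adjusted p = 0.00538 and 0.00188), and Nefl passed at -0.31 (adjusted p = 0.0364). Nefm then stood at -0.076. With an equal number of cells from each of 14 clusters, Map1a was at 0.77 (edgeR adjusted p = 4.38e-05) and Mapt at 0.42 (0.0132), but Map2 at -0.25 did not pass (0.0922). With cells of another class label left out, Map1a, Mapt and Map2 were at 0.55, 0.47 and -0.39, and all 3 passed. The part of the oligodendrocyte RNA at P21 in these values was not tested further.

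The excitatory clusters, each fitted by itself, mostly had the direction of the pooled class for Map1a, Mapt, Map1b and Map2. Of 187 pairs of member and cluster tested, 19 were called (13 higher and 6 lower at P60), against 11.3% of all gene and cluster pairs. Without the fold limit 50 passed (34 higher and 16 lower), against 14.8% of all pairs. An unadjusted edgeR p below 0.05 was found for 85, against 48051 of the 167898 pairs of all genes. The clusters come from the same 9 libraries and are not independent.

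Map1a was higher at P60 in 25 of 26 clusters, with a median log2 fold change of 0.45, and was called in 7. The largest difference was in Exc_5 at 0.90 ± 0.17 (SE, edgeR adjusted p = 0.000418), where the P21 libraries stood at 256, 154 and 211 CPM and the saline P60 libraries at 460, 375, 350, 405, 380 and 396 CPM. Of the 7, Exc_2, Exc_3, Exc_4 and Exc_5 were clusters with Calb1, at 0.66, 0.85, 0.65 and 0.90, and the others were Exc_12, Exc_13 and Exc_18 at 0.86, 0.66 and 0.67. Exc_1, also with Calb1, stood at 0.33 and did not pass (edgeR adjusted p = 0.213). In Exc_12 the P21 libraries stood at 195, 110 and 179 CPM and the saline P60 libraries at 256 to 316 CPM. Exc_17 stood at -0.019. Without P21 library 1, Map1a was called in 16 clusters, and without library 2 or library 3 in 4.

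Mapt was higher at P60 in 26 of 26 clusters, from 0.15 to 0.70 with a median of 0.38, and passed in 13. It was called in 5, namely Exc_6, Exc_7, Exc_15, Exc_17 and Exc_22. Leaving out P21 library 1, 2 or 3, it passed in 16, 8 and 9 clusters and was called in 8, 3 and 5. In Exc_17 the P21 libraries stood at 531, 442 and 491 CPM and the saline P60 libraries at 674, 667, 782, 924 and 857 CPM. Map1b was likewise higher in 26 of 26 clusters, from 0.039 in Exc_5 to 0.52 in Exc_1, with a median of 0.33. It passed in 10 clusters and reached 1.5-fold with an adjusted p below 0.05 in none. Exc_5 thus had the largest rise of Map1a and the smallest difference of Map1b. With P21 library 1, 2 or 3 left out, Map1b passed in 6, 7 and 5 clusters and was called in 0, 1 and 1.

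Map2 was lower at P60 in 24 of 26 clusters, with a median of -0.38, and passed in 9. It was called in Exc_1, Exc_6 and Exc_17. In Exc_1 the P21 libraries stood at 309, 281 and 300 CPM and the saline P60 libraries at 164, 190, 174, 203 and 168 CPM, a decrease of 0.69 on the log2 scale (edgeR adjusted p = 0.00617). With P21 library 1, 2 or 3 left out Map2 passed in 9, 5 and 5 clusters and was called in 5, 2 and 3.

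Among the neurofilament subunits, Nefl was lower at P60 in 23 of 26 clusters, with a median of -0.21, and passed in 4. In Exc_8, its single call, the P21 libraries stood at 487, 748 and 655 CPM and the saline P60 libraries at 348 to 523 CPM, so that they overlapped, with a log2 fold change of -0.59 (edgeR adjusted p = 0.00470). Without P21 library 1, 2 or 3 Nefl passed in 7, 1 and 4 clusters and was called in 2, 0 and 0, Exc_8 then standing at -0.76, -0.47 and -0.57 (edgeR adjusted p = 6.46e-05, 0.0432 and 0.0306). Nefm went both ways. In Exc_5 it was higher at P60, at 49.5, 42.5 and 56.2 CPM at P21 against 76.9 to 116 CPM, with a log2 fold change of 0.89 (edgeR adjusted p = 0.0207). In Exc_8 it was lower, at 103, 115 and 66.6 CPM at P21 against 15.9 to 66.9 CPM (-0.97, edgeR adjusted p = 0.0263), with an overlap at the edge. In Exc_24 Nefm was lower too, at 202, 134 and 58.2 CPM at P21 against 28.3 to 69.5 CPM, which overlapped (-1.28, edgeR adjusted p = 0.0319). Whether these clusters differ from each other was not tested. None of these 3 passed without P21 library 1, where Nefm stood at 0.87, -0.88 and -0.67 (edgeR adjusted p = 0.0804, 0.0828 and 0.0672), or without library 2, at 0.81, -0.84 and -1.30 (edgeR adjusted p = 0.0930, 0.0924 and 0.0843). All 3 passed without library 3, at 0.98, -1.15 and -1.55 (edgeR adjusted p = 0.0453, 0.0131 and 5.85e-06). Without library 1 its single call was in Exc_19, at 0.60 (edgeR adjusted p = 0.0227). Ina was higher in 15 and lower in 11 clusters and passed in Exc_21 at -0.42 (edgeR adjusted p = 0.0408). It passed in 0 clusters without P21 library 2 or library 3 (edgeR), and without library 1 it was called in Exc_2, higher at P60, at 0.74 (edgeR adjusted p = 0.0238). Nefh could be tested in 7 clusters and passed in none by edgeR, with 0 at an unadjusted p below 0.05. In Exc_26, where Nefh was highest, it stood at 54.1, 29.8 and 64.2 CPM at P21 and 14.0 to 103 CPM in the adult libraries.

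**Figure D4:**
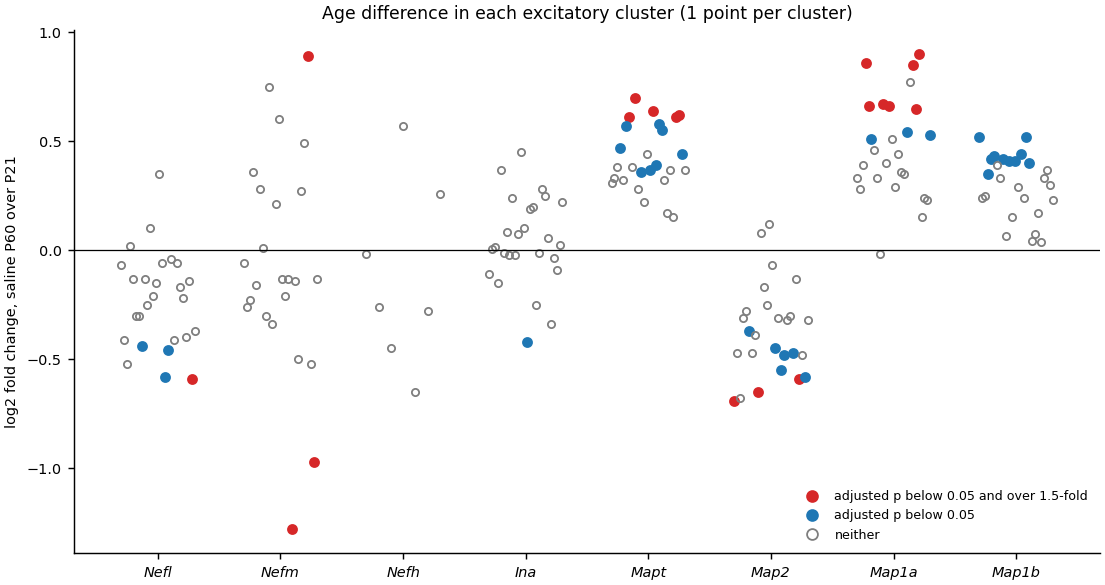
Each point is the log2 fold change of saline P60 over P21 in 1 excitatory cluster, for each gene. Red marks an adjusted p below 0.05 with over 1.5-fold, blue an adjusted p below 0.05, and open grey neither. The points of Mapt and Map1b are all above 0, those of Map1a are above 0 in 25 of 26 clusters and those of Map2 below 0 in 24 of 26.

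In inhibitory neurons summed as a class, Map1a was again higher at P60. It was at 255, 181 and 166 CPM at P21 and averaged 292 ± 31.6 CPM at P60 (255 to 327 CPM, median 292), the highest P21 and the lowest P60 library both standing at 255 CPM (log2 fold change 0.51 ± 0.15, fold 1.43, edgeR adjusted p = 0.0197). It was under 1.5-fold and so not called, and it no longer passed without P21 library 2 (0.44, adjusted p = 0.0994) or library 3 (0.40, adjusted p = 0.137), and with all 12 adult libraries it stood at 0.38 (adjusted p = 0.0503). Without P21 library 1 it was at 0.73 (edgeR adjusted p = 0.000786). The class held other clusters at each age. Inhib_7, the inhibitory cluster with the most Map1a in adults, supplied 76 of 962 cells at P21 and at least 191 of 563 in the saline P60 libraries. Within the 3 clusters that could be fitted Map1a did not pass, at 0.19 in Inhib_2, 0.30 in Inhib_7 and 0.68 in Inhib_9 (edgeR adjusted p = 0.793, 0.424 and 0.324). Ina was at 132, 109 and 136 CPM at P21 and 87.9 ± 24.5 CPM at P60 (-0.41, edgeR adjusted p = 0.0806). Mapt, Map2 and Map1b stood at 0.22, 0.17 and -0.24 (edgeR adjusted p = 0.234, 0.447 and 0.185), and Nefl, Nefm and Nefh at -0.21, -0.28 and -0.25 with wide intervals (-1.11 to 0.70 for Nefl). By edgeR 0 of 8 members were called, against 14.0% of 8898 genes tested, and 1 passed without the fold limit, against 19.0%. DESeq2 gave 0 and 1, and 2 members had an unadjusted edgeR p below 0.05, against 2936 of the 8898 genes.

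The age difference itself differed between the neuron classes for 3 microtubule-associated proteins. This was tested as the interaction of age with class in the same 9 libraries, with inhibitory minus excitatory as the sign. Map1b gave -0.54 ± 0.070 (SE, log2, edgeR adjusted p = 8.40e-08), from 0.26 in excitatory and -0.24 in inhibitory neurons. Mapt gave -0.33 ± 0.079 (adjusted p = 0.00329), with the smaller difference in inhibitory neurons. Map2 gave 0.47 ± 0.10 (adjusted p = 0.00113), from -0.36 in excitatory and 0.17 in inhibitory neurons. Map1a gave -0.065 (95% interval -0.26 to 0.13, edgeR adjusted p = 0.769). None of the 8 exceeded 1.5-fold with an adjusted p below 0.05, against 7.16% of 12617 genes, and 3 of 8 passed without the fold limit, against 10.9%. DESeq2 gave 0 and 3, and 3 members had an unadjusted edgeR p below 0.05, against 2854 of the 12617 genes. Without P21 library 1 the 3 values were -0.56, -0.31 and 0.49, and all passed (edgeR adjusted p = 1.95e-06, 0.0250 and 0.00481). A summed class can also differ through its mix of clusters. For Map1b, the inhibitory clusters that could be fitted stood at 0.44 in Inhib_7, -0.13 in Inhib_2 and -0.40 in Inhib_9 (edgeR adjusted p = 0.155, 0.816 and 0.324), and the part of the mix in the pooled value was not tested. Among the 16 member and cluster pairs of these 3 clusters, 0 were called by edgeR.

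As a measure that needs no scaling between libraries, the Map1b share of the UMIs of Map1a and Map1b was compared. In inhibitory neurons it was 80.4%, 87.9% and 88.0% at P21 and 72.2% to 80.0% in the 6 saline P60 libraries, without overlap. The difference of means was -8.05 points (exact permutation test, two-sided, p = 0.0119, the smallest that 84 splits allow). With P21 libraries 2 and 3 summed as 1, in case they share animals, it was -6.80 points (exact permutation p = 0.0714). Leaving out P21 library 1, 2 or 3, it was -10.6, -6.83 and -6.78 points (exact permutation p = 0.0357, 0.0714 and 0.0714, where 28 splits allow no less than 0.0357). Within clusters the share averaged 64.5% at P21 and 65.4% over all adult libraries in Inhib_7, whose part of the class was larger in adults, 87.0% and 84.8% in Inhib_2, and 92.3% and 85.3% in Inhib_9. The part of the cluster mix in the class value was not tested. In excitatory neurons it was 85.3%, 90.6% and 90.4% against 82.7% to 88.0%, a difference of -2.39 points (exact permutation test, two-sided, p = 0.214). It was -4.13 points without P21 library 1 and -3.61 points with an equal mix of clusters (exact permutation p = 0.0357 each), -1.52 points with libraries 2 and 3 summed (exact permutation p = 0.464), and -1.46 and -1.58 points without library 2 or library 3. The Nefh share of the 4 neurofilament subunits was 2.09% ± 0.275 at P21 and 2.51% ± 0.570 at P60 in excitatory neurons (exact permutation p = 0.274). The Ina share was 18.1% ± 1.72 and 18.7% ± 2.27 (exact permutation p = 0.679). The 3 shares were planned for excitatory neurons, with inhibitory neurons as an alternative setting. They were tested in 2 classes and 2 comparisons, and their p-values are unadjusted.

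In mature oligodendrocytes, tau was higher in the adult. Mapt was at 612, 498 and 534 CPM at P21 and 984 to 1178 CPM in the 6 saline P60 libraries (means 548 ± 58.1 and 1069 ± 83.8 CPM), without overlap. The log2 fold change was 0.88 ± 0.13 (fold 1.84, edgeR adjusted p = 0.000136), and it was 0.95 without P21 library 1 (adjusted p = 0.000124). This was the 1 call among 25 pairs of member and non-neuronal type that could be tested in 5 types, against 8.05% of all gene and type pairs. Without the fold limit it was also 1, against 9.77%, and DESeq2 called 2. Map1a in the same cells stood at -0.37 (edgeR adjusted p = 0.0767). In newly formed oligodendrocytes Map1b was at 1898, 2979 and 2955 CPM at P21 and 1442 to 1970 CPM at P60, a difference of -0.65 ± 0.17 that did not pass (edgeR adjusted p = 0.0541). It was called without P21 library 1 (-0.81, adjusted p = 0.00662) and without saline library 2 of the 15-day point (-0.68, adjusted p = 0.0397). Oligodendrocyte precursors were not fitted, since no more than 1 P21 library had 10 cells or more.

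Other cytoskeletal genes of the excitatory neurons were read beside the members, with 19.3% of all genes called and 40.4% passing without the fold limit. No list had a larger share called than all genes. Of 13 other intermediate filament genes, 11 were tested and 2 were called, both lower at P60, Nes falling from a mean of 1.75 to 0.435 CPM and Vim from 3.99 to 1.09 CPM. Both are filaments of immature and non-neuronal cells. Endothelial markers summed to 18.0 to 54.0 CPM at P21 against 2.01 to 8.55 CPM in saline P60 libraries. With cells of another class label left out, they summed to 9.12 to 18.0 CPM at P21. The part of RNA from other cells in the levels of Nes and Vim was not tested. Of 31 other microtubule-binding genes tested, 4 were called, all lower. Clasp2, which binds growing microtubule ends, fell from 107 to 45.5 CPM (log2 fold change -1.16, edgeR adjusted p = 2.83e-05), and Dclk1, a microtubule-binding kinase, from 627 to 378 CPM. Of 12 tubulins tested, Tuba8 rose from 4.44 to 12.8 CPM and Tubb2b, a tubulin of developing neurons, fell from 80.0 to 27.6 CPM. Of 13 tau kinases and phosphatase subunits, Ppp2ca and Ppp2r2a of the tau phosphatase PP2A fell, from 211 to 133 and from 104 to 66.1 CPM. Without the fold limit 2 of the 11 other filament genes were higher and 3 lower, 2 of the 31 microtubule-binding genes higher and 9 lower, 7 of the 12 tubulins higher and 2 lower, and 1 of the 13 tau kinases and phosphatase subunits higher and 6 lower. The medians of the 4 lists were -0.20, -0.043, 0.26 and -0.29 on the log2 scale, against -0.0048 over all genes. In inhibitory neurons each list had 1 call, lower at P60 in each, out of 7, 29, 12 and 12 genes tested, against 14.0% of all genes.

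The comparison of cocaine with saline IVSA asked whether the drug alters these genes at each Period. No member was called at any time point in excitatory neurons. At the maintenance phase 0 of 8 were called, against 0% of 13171 genes with or without the fold limit, and at 48 h again 0 of 8, against 0%. At 15 days 0 of 8 were called, against 0.706% of genes with and 0.729% without the fold limit. edgeR gave 0 members at an unadjusted p below 0.05 at each time point, DESeq2 gave 1 at 15 days, and DESeq2 called none. Over all 13171 genes, 871, 651 and 903 were below it by edgeR at maintenance, 48 h and 15 days. With 2 libraries per group the fits were not precise: at 15 days the 95% interval was -0.021 to 0.79 for Nefm and -0.054 to 0.50 for Nefl.

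Nefm showed the largest difference at 15 days. The cocaine libraries stood at 84.6 and 81.7 CPM and the saline libraries at 59.1 and 72.6 CPM, which did not overlap (log2 fold change 0.38 ± 0.19, edgeR adjusted p = 0.820). Nefl was at 428 and 456 CPM with cocaine and 362 and 419 CPM with saline (0.22). With an equal mix of clusters these differences were 0.098 for Nefm and -0.039 for Nefl, whose direction turned. Mapt was at 773 and 780 against 797 and 792 CPM, slightly lower with cocaine, while the fit, which rescales libraries by TMM, gave 0.012. Map1a stood at 229 and 219 against 247 and 222 CPM (-0.018), Map2 at 161 and 147 against 182 and 164 CPM (-0.12), and Map1b at 1679 and 1714 against 1649 and 1624 CPM (0.097). At 48 h Nefm stood at 44.4 and 68.7 CPM with cocaine and at 50.7 and 73.3 CPM with saline (-0.15), so that its direction was not shared. The difference between these 2 time points was 0.54 for Nefm and 0.39 for Nefl (unadjusted p = 0.0688 and 0.0528 by edgeR).

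**Figure D5:**
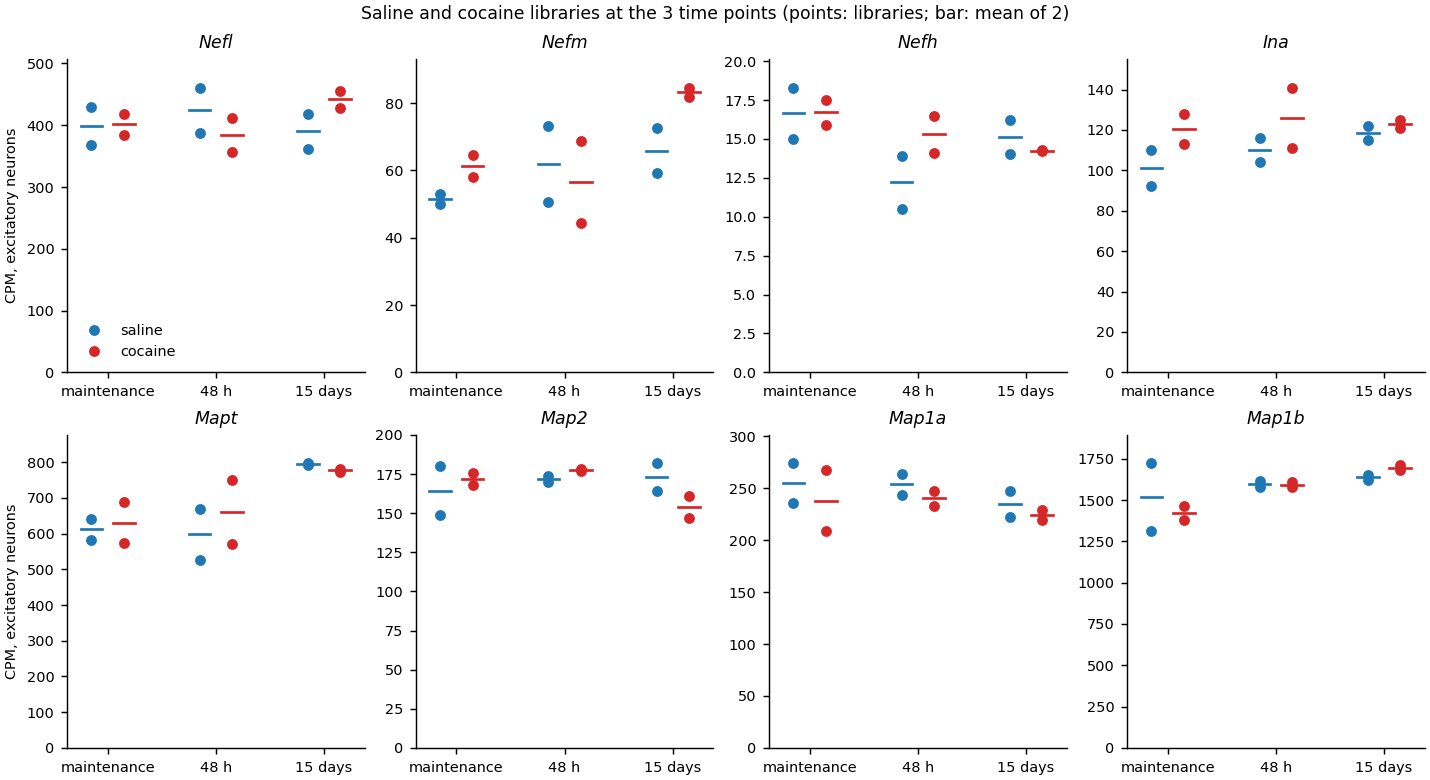
Points are single saline (blue) and cocaine (red) libraries in CPM of excitatory neurons at the 3 time points, and bars are means of 2 libraries. The 2 cocaine libraries of Nefm at 15 days lie at 84.6 and 81.7 CPM, above saline at 59.1 and 72.6 CPM. None of the 8 members was called at any of the 3 time points by edgeR or DESeq2.

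Over all time points, with the time point held in the fit, 0 of 8 members were called, against 0% of 13171 genes with or without the fold limit. Ina had the smallest p, at 0.17 ± 0.071 (95% interval 0.019 to 0.32, edgeR adjusted p = 0.544). It was the 1 member at an unadjusted p below 0.05, by edgeR as by DESeq2, against 1122 of the 13171 genes by edgeR. The 95% interval was -0.21 to 0.054 for Map1a and -0.17 to 0.14 for Map1b. The interaction of cocaine with time point gave 0 calls of 8 members by edgeR and by DESeq2. With or without the fold limit, edgeR called 0% of the tests of all genes. By edgeR 0 members had an unadjusted p below 0.05, against 1967 of 39513 tests of all genes. In inhibitory neurons 0 of 8 were called by edgeR or DESeq2, against 0% of 8687 genes by edgeR with or without the fold limit. Against 451 of the 8687 genes by edgeR, 2 members had an unadjusted p below 0.05, by edgeR and by DESeq2. By edgeR these were Map1a at -0.31 ± 0.10 and Map2 at -0.32 ± 0.13 (edgeR adjusted p = 0.825 and 0.933). By time point, Map1a stood at -0.73 at maintenance, with 219 and 168 CPM with cocaine and 327 and 319 CPM with saline, which did not overlap (edgeR unadjusted p = 0.00125, adjusted p = 1.00). It stood at -0.074 at 48 h and -0.11 at 15 days, and the differences from maintenance were 0.66 and 0.62 (edgeR unadjusted p = 0.0197 and 0.0220, adjusted p = 1.000 for both). Map2 was at -0.66, -0.22 and -0.073 at the 3 time points, and the smallest adjusted p of any member at any of them was 0.662, for Nefm at 15 days (1.04, edgeR). Library sums here rest on as few as 19 cells. None of the Map1b, Nefh and Ina shares passed an unadjusted 0.05 between cocaine and saline in either class (exact permutation p of 0.120 to 0.935). The smallest p was that of the Map1b share in inhibitory neurons, at 81.0% ± 3.39 with cocaine and 77.4% ± 3.24 with saline (3.65 points). Its direction turned at 48 h, at 76.2% and 78.9% with cocaine and 79.9% and 80.0% with saline.

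Single excitatory clusters gave 0 calls among 450 tests of member, cluster and time point by edgeR, against 0.539% of all such tests with and 0.555% without the fold limit. Of these, 35 had an unadjusted p below 0.05, against 25367 of the 431449 tests of all genes. DESeq2 called 0 and had 6 below 0.05. At 15 days Nefm was higher with cocaine in 25 of 25 clusters, with a median of 0.30, and Nefl in 25 of 26, with a median of 0.21, whereas Map2 was lower in 24 of 26, with a median of -0.13. All clusters draw on the same 4 libraries, so that a shared direction is no repeat of the measurement. The smallest adjusted p was that of Nefm in Exc_18, where cocaine stood at 413 and 302 CPM and saline at 182 and 262 CPM (log2 fold change 0.74 ± 0.20, edgeR adjusted p = 0.0928). It was called without cocaine maintenance library 2, which is no part of this contrast but enters the shared fit (0.72, edgeR adjusted p = 0.0290). In Exc_7 Nefm was at 34.8 and 36.1 CPM with cocaine and at 11.5 and 23.4 CPM with saline (1.03, edgeR adjusted p = 0.113). Without saline library 2 of the 15-day point, Nefm was called in 5 clusters, Exc_7, Exc_10, Exc_19, Exc_20 and Exc_22, at 1.64, 0.74, 0.78, 1.04 and 0.79, each then resting on a lone saline library assumed to vary like the rest. At maintenance Map1b was lower with cocaine in 15 of 15 clusters, with a median of -0.14, and at 48 h Ina was higher in 17 of 19, with a median of 0.30. In the excitatory class as a whole at 15 days, Mapre3, which binds microtubule plus ends, was called as 1 of 31 other microtubule-binding genes tested, against 0.706% of all genes, at 129 and 136 CPM with cocaine and 83.1 and 92.6 CPM with saline (0.63 ± 0.13, edgeR adjusted p = 0.0356).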

How the data were processed

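The authors deposited raw UMI counts per gene and cell, 1 matrix per library, with cell types and clusters; unhealthy cells and likely double droplets had been removed, and P21 cells were named by correlation with the adult clusters. The submitters' processing notes name Cell Ranger, Seurat (2.1.0) and mm9. The joined matrix was not used. From these counts, UMIs were summed per library and population (10 cells or more). CPM and tests used 25989 genes, without 13 mitochondrial and 143 ribosomal protein genes. 149 symbols occurred more than once, and their rows were kept apart. Tests were edgeR (4.0.16) quasi-likelihood fits with TMM, adjusted by Benjamini-Hochberg over all genes of a fit, in R (4.3.3). DESeq2 (1.42.0) was an alternative. A member was called at adjusted p below 0.05 and over 1.5-fold. Shares were tested by exact permutation over all regroupings in Python (3.11.15) with numpy (2.4.6). Detection was compared after thinning cells to 2000 UMIs. Scripts were tested on simulated data. P-values measure the spread between libraries, which at P21 are not all from separate animals if the stated numbers of mice hold. Intervals cover counting error only where so stated.

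All 8 members were named. From pathway lists, up to 3 called genes per comparison with the largest change were named, and the 3 genes most like each member across clusters. Members and lists were chosen with earlier results of these data known. Transcript ends were aligned with minimap2 (2.31-r1302). Alternatives were other scaling, filters, cell sets and leaving out libraries.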

Additional observations from a re-analysis of the deposited data

Results flagged for a closer look

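Of 44 groups of 6 libraries tested for an outlying library by Dixon's criterion, 1 met it, where chance flags about 1 in 20. In excitatory neurons, saline maintenance library 1 had 1311 CPM of Map1b, the lowest of the 6 saline P60 libraries, whose median was 1619 CPM. Without it, the age difference of Map1b was 0.31 on the log2 scale and passed (edgeR adjusted p = 0.0170).

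The age difference differed between inhibitory and excitatory neurons, by the interaction of age with class, for Map2 (0.47), Map1b (-0.54) and Mapt (-0.33, log2, inhibitory minus excitatory). The part of the mix of inhibitory clusters in these values was not tested.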

How the results depend on the processing

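The inhibitory values rest on as few as 19 cells per adult library, and intervals were wide with 2 libraries per cocaine group. No paired analysis was possible because the replicate numbers of the libraries follow accession order and pair no samples. Of the summary results under alternatives other than leaving out a library, 103 values kept their side and direction, 15 moved, 2 reversed, 2 came to pass the threshold and 1 no longer passed. In excitatory neurons the calls by age were 0 with both limits, 3 with no fold limit, 1 with no filter on low counts and 1 with an equal mix of clusters. In inhibitory neurons they were 1 with no fold limit. In excitatory clusters 19 calls became 50 with no fold limit and 9 after thinning. In non-neuronal types 1 call became 2 with DESeq2, with mitochondrial and ribosomal protein genes kept, after thinning, with all 12 adult libraries and with cells of another class label left out (an alternative chosen after seeing the data), and 3 with no filter. The interaction of age with class gave 3 with no fold limit and 1 after thinning, and cocaine in clusters gave 2 with no filter. The difference in the Map1b share, -2.39 points, was -3.61 with an equal mix (exact permutation p = 0.0357) and -8.05 in inhibitory neurons (exact permutation p = 0.0119), where it became -6.80 with P21 libraries 2 and 3 summed (exact permutation p = 0.0714) and -10.6 to -6.78 with each library left out, settings chosen after seeing the data. The Ina share, 0.633 points, reversed to -0.653 after thinning. In inhibitory neurons, which are another class, the Ina share was 55.4% at both ages. Its difference of -0.000347 points entered the count of reversals by its sign only. The cause of these changes was not tested.

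Single genes reversed sign as follows (log2). For age in excitatory neurons, Nefm was 0.31 and Ina 0.11 with an equal mix, and Nefh was -0.070 after thinning, -0.033 without cells of another class label and -0.036 with P21 libraries 2 and 3 summed. Nefl in inhibitory neurons was 0.15 after thinning. For cocaine at maintenance, Nefl was 0.061 after thinning and 0.11 with an equal mix, Nefh -0.0041 by DESeq2, -0.0030 with DESeq2 size factors and -0.56 with an equal mix, Map2 -0.070 with an equal mix and Map1a 0.0016 after thinning. At 48 h, Nefh was -0.24 and Map2 -0.066 after thinning and Map1b 0.017 with an equal mix. At 15 days, Nefl was -0.039, Nefh 0.26 and Ina -0.00090 with an equal mix. Over all time points, Nefl was -0.0051 with an equal mix and, in inhibitory neurons, Map1b -0.020 after thinning. For the interaction of age with class, DESeq2 gave -0.29 for Nefl and -0.32 for Nefm, and Nefm was -0.10 without cells of another class label.

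Leaving out each library in turn gave 0 to 1 calls by age in excitatory neurons (1 without P21 library 1 or without saline library 2 of 15 days), 0 to 1 in inhibitory neurons (1 without P21 library 1), 10 to 33 in excitatory clusters (33 without P21 library 1 and 10 without P21 library 2) and 1 to 3 in non-neuronal types (3 without P21 library 1, and 2 without saline library 1 or 2 of 15 days). Cocaine in clusters gave 0 to 5 (5 without saline library 2 of 15 days and 1 without cocaine maintenance library 2), and every other cocaine count and the interaction of age with class stayed at 0. The Map1b share moved from -4.13 (without P21 library 1, exact permutation p = 0.0357) to -1.46 points, the Nefh share from 0.253 to 0.586, and the Ina share from -0.179 (without P21 library 2) to 1.54. Among single genes, Nefl by age in excitatory neurons passed without P21 library 1 (-0.31, edgeR adjusted p = 0.0364) or saline library 1 of 48 h (-0.29, adjusted p = 0.0409). Sign changes among single genes were frequent where the difference was small, and ranges that crossed 0 were as follows (log2). By age, Nefh in excitatory neurons ran from -0.051 to 0.099 and Nefl in inhibitory neurons from -0.35 to 0.0048. For cocaine at maintenance, Nefl ran from -0.17 to 0.15, Nefh from -0.11 to 0.085, Mapt from -0.082 to 0.11, Map2 from -0.043 to 0.13, Map1a from -0.27 to 0.011 and Map1b from -0.35 to 0.14. At 48 h, Nefm ran from -0.50 to 0.14, Ina from -0.00040 to 0.34 and Mapt from -0.077 to 0.31. At 15 days, Nefh ran from -0.13 to 0.066, Mapt from -0.0065 to 0.038 and Map1a from -0.088 to 0.057. Over all time points, Nefl ran from -0.032 to 0.071, Mapt from -0.012 to 0.11, Map2 from -0.044 to 0.019 and Map1b from -0.087 to 0.074. In inhibitory neurons with cocaine, Nefl ran from -1.06 to 1.18, Nefh from -0.64 to 0.42, Ina from -0.075 to 0.27, Mapt from -0.058 to 0.078 and Map1b from -0.065 to 0.13. For the interaction of age with class, Nefl ran from -0.057 to 0.31 and Nefm from -0.37 to 0.23.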
